A study of Mus musculus with 18 samples.

Results

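The transcriptome of the frontal cortex was compared between Pcm1-/- and WT mice in 6 of the 18 libraries of the series, 3 of each genotype, picked by their tissue and genotype labels. The other 12 libraries came in equal numbers from the striatum and the hippocampus. RNA sequencing was done to find what loss of Pcm1 changes in the adult brain. All samples are labelled as adult and as strain C57 Bl6J, and the labels give no treatment and no allele other than WT or PCM1 KO. The mutants descended from gene-trap embryonic stem cells of the E14 family, which derives from another inbred strain, and were bred to C57BL/6J for at least 3 generations, with WT littermates as controls. The insertion is present from conception in every cell type, and DNA of the stem cell strain beside Pcm1 travels with it. There were 3 mice of each genotype and each gave all 3 regions, so the libraries of 1 genotype in the frontal cortex came from separate mice. The labels do not say which libraries of different regions share a mouse.

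PCM1 is the scaffold protein of centriolar satellites, granules that move along microtubules and deliver proteins to the centrosome and to the primary cilium, the single antenna-like organelle on which receptors of neurons and glia sit. Proteins bound for any membrane, or for secretion, are made at the endoplasmic reticulum (ER): a hydrophobic stretch is recognized as it leaves the ribosome, threaded through the translocon, and left in the lipid or cut off. The frontal cortex holds layers of glutamatergic projection neurons, GABA interneurons, glia and blood vessels. In such bulk tissue, fewer cells of a type and less RNA per cell cannot be told apart.

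Pcm1 itself (chromosome 8, GRCm38) was read at 117, 129.97 and 145 counts per 1e+06 of the scaled library size (CPM) in WT and at 11.8, 11.9 and 11.8 CPM in Pcm1-/- libraries, in keeping with every label. Between 26535872 and 33405081 reads were counted on genes per library, and no pair of libraries was a duplicate. Neurons of the region were well represented, with Slc17a7, the vesicular glutamate transporter of cortical neurons, at 1873 to 2365 CPM. Replicate 2 was male in both genotypes and replicates 1 and 3 were female by their Y-linked counts. WT replicate 2 held pituitary transcripts, with growth hormone (Gh) at 137.6 CPM and prolactin (Prl) at 36.4 CPM. Reads on mitochondrial genes made up 5.65%, 4.62% and 4.05% of WT and 3.34%, 3.56% and 3.20% of Pcm1-/- counts. Malat1, a nuclear noncoding RNA, stood at 305 to 423 CPM in WT and at 148, 449 and 186 CPM in Pcm1-/- replicates 1 to 3. WT replicates 1, 2 and 3 were run on lanes 3, 4 and 5 and Pcm1-/- replicates on lanes 4, 5 and 5, so lane and genotype were only partly separable.

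More transcripts rose than fell in Pcm1-/- frontal cortex, and most changes were modest. Of 17545 genes tested, 247 rose (1.41%) and 59 fell (0.336%) at a Benjamini-Hochberg adjusted p under 0.05 in the edgeR quasi-likelihood test, which is the test behind every adjusted p and call given here where no other is named. The rises had a median of 1.31-fold (log2 fold change 0.39), and 6 of them reached 2-fold. The falls had a median of 0.678-fold (log2 fold change -0.56), and 12 of them reached 2-fold. The rises were abundant transcripts, with a median average log2 CPM of 6.00 against 3.70 for all genes tested, and 244 of the 247 encode proteins. The median log2 fold change over all genes was -0.0066. Mutant libraries lay wholly above or wholly below the WT libraries for all of these genes, which held for 11.2% and 10.1% of all genes tested.

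The number of calls moved strongly with single libraries. Without Pcm1-/- replicate 1, 8 genes rose and 3 fell. Without Pcm1-/- replicate 2 the counts were 18 and 9, without Pcm1-/- replicate 3 they were 39 and 15, without WT replicate 1 they were 73 and 15, and without WT replicate 2 they were 57 and 14. Without WT replicate 3 they grew to 553 and 272. With the replicate number as a block, 428 rose and 237 fell, all 306 calls among them. With lane as a covariate, 22 rose and 7 fell, all 29 of them among the 306. None of the 306 changed sign in any of 15 alternatives. All of these use the same frontal cortex libraries, and groups that do not overlap leave little room for a change of sign. Of the 97 called genes that the naming rule picked, 88 missed the threshold without Pcm1-/- replicate 1, 77 without Pcm1-/- replicate 2, 70 without Pcm1-/- replicate 3, 54 without WT replicate 1, 60 without WT replicate 2, 78 with lane as a covariate, 49 in 1 fit of all 18 libraries and 13 with sex as a covariate. Pcm1, Tmem179, Cers6, Maco1, Sstr2, Elovl4 and Pcdh9 were among those that passed it in all 15.

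Among rises with an average log2 CPM of 1 or more, those with the smallest p were genes for proteins of membranes. Tmem179, a small protein with several membrane spans, was read at 97.8, 99.2 and 105 CPM in WT and at 169.8, 166 and 169.7 CPM in Pcm1-/- libraries, a rise of 1.68-fold (log2 fold change 0.75 ± 0.05 SE, adjusted p = 0.00144). Cers6, a ceramide synthase of the ER that joins a fatty acid to the sphingoid base, went from 58.7, 56.5 and 63.3 CPM to 103, 119.6 and 111 CPM (0.90 ± 0.07, adjusted p = 0.00233). Maco1, or macoilin, a neuronal membrane protein, went from 76.3, 82.0 and 82.4 CPM to 127, 138 and 136 CPM (0.74 ± 0.06, adjusted p = 0.00233). The mutant values of these genes lay well away from the WT range in all 3 libraries, groups without overlap being a condition for naming them. Elovl4, an ER elongase that makes very long fatty acids, was read at 66.5, 69.4 and 68.9 CPM in WT and at 97.5, 105 and 103 CPM in mutants (0.57 ± 0.05, adjusted p = 0.00398). Pcdh9, a protocadherin, rose from 103, 116 and 114 CPM to 167, 178 and 175 CPM (0.64 ± 0.06, adjusted p = 0.00484). Tram1l1, a relative of the translocating chain-associated protein of the ER translocon, rose from 25.3, 25.5 and 26.4 CPM to 37.4, 38.0 and 39.1 CPM (0.57 ± 0.06, adjusted p = 0.00545). Saraf, an ER protein that restrains store-operated calcium entry, rose from 224, 215 and 232 CPM to 318, 307 and 311 CPM (0.48 ± 0.05, adjusted p = 0.00733). Also among them were receptors, Sstr1, Sstr2 and Sstr4 for somatostatin and Npy1r for neuropeptide Y.

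**Figure D1:**
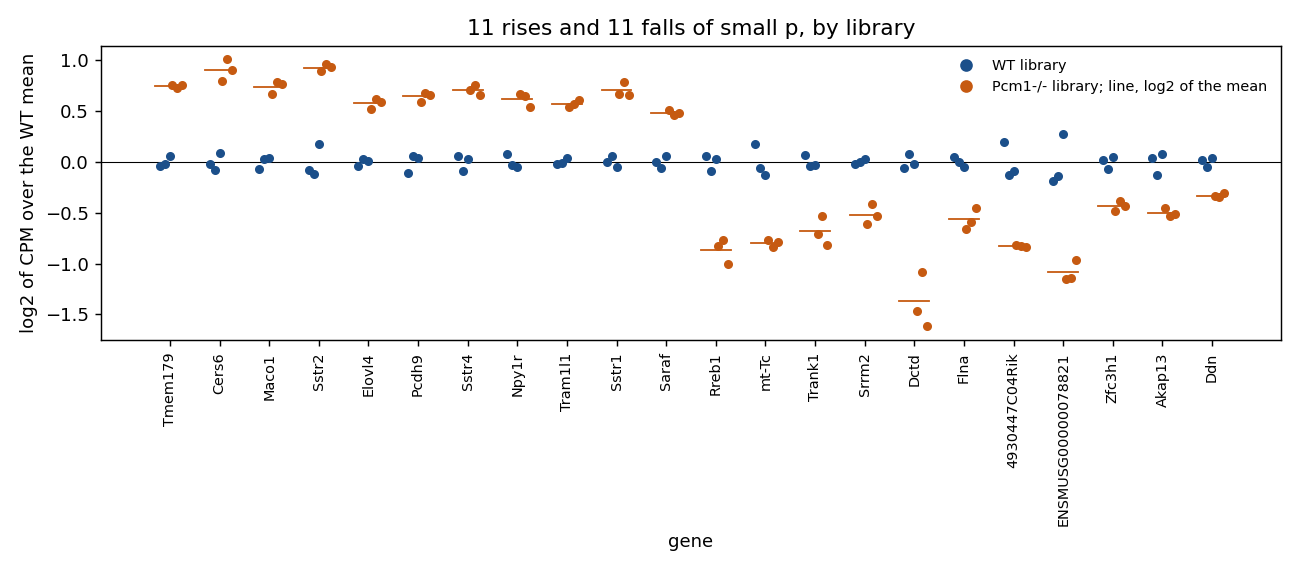
Level of 11 rises and 11 falls among those with the smallest p at an average log2 CPM of 1 or more, in each frontal cortex library, as log2 of CPM over the WT mean of that gene; each point is 1 library and each line the log2 of the Pcm1-/- mean over the WT mean. In every gene shown the 3 Pcm1-/- points lie on 1 side of the 3 WT points, which was a condition of their choice.

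The first 3 of these genes illustrate a feature that most of the rises had. The coding sequences below are from the GENCODE annotation of GRCm38, 5′ to 3′, with the codons of the most hydrophobic run of 19 residues in capitals and 4 codons on each side. The Tmem179 gene lies at chr12:112500189-112516747 on the minus strand, and the run shown is residues 112 to 130 of 233, with a mean Kyte-Doolittle hydropathy of 2.67. Cers6 lies at chr2:68861441-69114282 on the plus strand, and its run is residues 37 to 55 of 392, with a mean of 1.93. Maco1 lies at chr4:134802759-134853345 on the minus strand, and its run is residues 77 to 95 of 664, with a mean of 2.42.
Tmem179: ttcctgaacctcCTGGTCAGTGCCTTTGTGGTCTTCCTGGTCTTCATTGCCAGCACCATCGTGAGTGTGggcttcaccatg
Cers6: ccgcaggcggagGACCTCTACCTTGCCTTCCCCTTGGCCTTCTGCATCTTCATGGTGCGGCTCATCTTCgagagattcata
Maco1: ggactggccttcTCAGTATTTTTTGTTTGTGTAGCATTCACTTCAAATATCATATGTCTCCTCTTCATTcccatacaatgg
Each run is long enough to cross a lipid bilayer once. Counted the same way, Tmem179 and Cers6 had 4 such segments each and Maco1 had 3.

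Every coding gene was then scanned for segments of 19 residues with a mean hydropathy of at least 1.6, and for a hydrophobic stretch near the N terminus such as a signal peptide has. This grouping was chosen after the values were seen, so it is a description with no test. Of 242 rises that could be scanned, 232 (95.9%) had a segment or stretch, against 6244 of 15319 tested genes (40.8%) and 24 of 49 falls (49.0%). Among genes with an average log2 CPM of 4 to 8 the shares were 95.7% of 186 rises and 37.6% of all. With segments held to a mean of at least 1.9, and the N-terminal stretch left out, they were 84.3% of rises, 28.6% of falls and 26.4% of all. The 10 rises with neither were Olfm3, Myl12a, Gpatch11, Ociad1, Flywch2, Rassf3, Jun, Igfn1, Tmem209 and Asphd1. Across the 15 alternatives 92.8% to 100% of rises had a segment or stretch, the upper end being 7 of 7 rises without Pcm1-/- replicate 1 and 17 of 17 without replicate 2. The share of falls moved more, from 0 of 3 without Pcm1-/- replicate 1 and 1 of 7 without replicate 2 to 54.5% of 11 without replicate 3, and was 38.1% of 210 with DESeq2, 32.5% of 243 without WT replicate 3 and 33.3% of 12 without WT replicate 2.

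The share of genes called climbed with the number of segments in 1 direction only. Of 9075 genes with no segment, 10 rose (0.110%) and 25 fell (0.275%). Of 2978 genes with 1 segment, 66 rose (2.22%) and 14 fell (0.470%). Of 2003 genes with 2 to 5 segments, 110 rose (5.49%) and 6 fell (0.300%), and of 796 with 6 or more, 49 rose (6.16%) and 3 fell (0.377%). Genes with only an N-terminal stretch, such as secreted proteins have, rose in 7 of 467 cases (1.499%). The shift was not limited to the called genes. Among genes whose average log2 CPM was 1 or more, the median log2 fold change was -0.01 with no segment (n = 7526), 0.02 with 1 (n = 2271), 0.07 with 2 to 5 (n = 1572) and 0.11 with 6 or more (n = 590), and 69.2% of the last class were higher in the mutants. The medians of the same classes in the striatum were -0.0017, 0.0023, 0.03 and 0.08, and in the hippocampus 0.01, 0.02, 0.04 and 0.07.

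**Figure D2:**
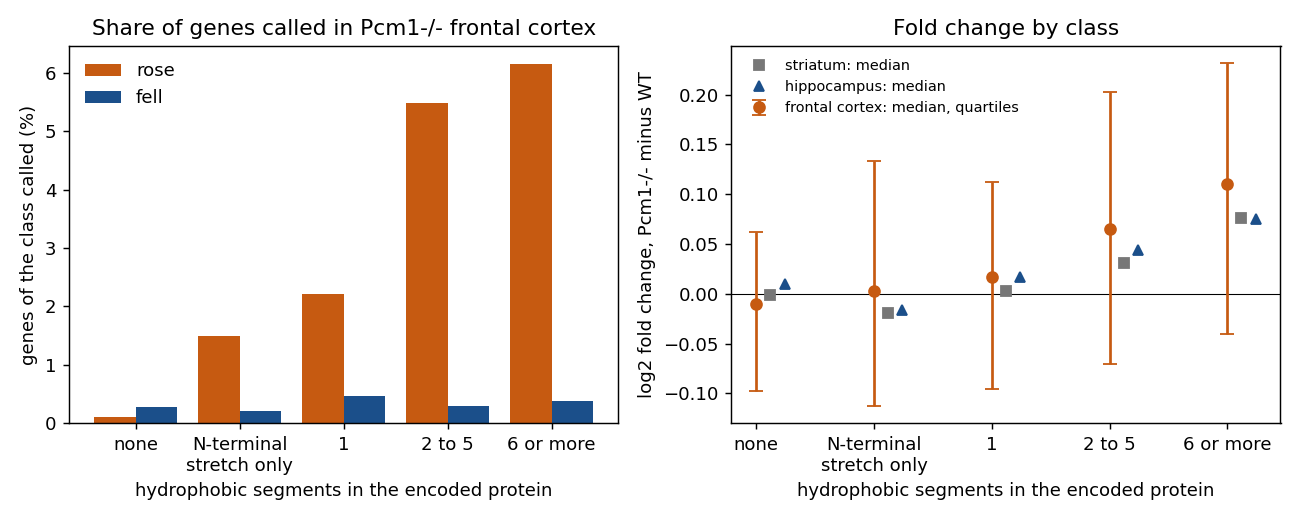
Left, percentage of the tested coding genes in each class of hydrophobic segments that rose or fell in Pcm1-/- frontal cortex; right, median log2 fold change of genes whose average log2 CPM was 1 or more, with quartiles for the frontal cortex and medians for the other regions. The share that rose goes from 0.110% with no segment to 6.16% with 6 or more, while the share that fell stays between 0.214% and 0.470%.

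Each library showed the shift. The deviation of each gene's log2 CPM from its mean over the 6 libraries was taken, and the median over genes with 2 or more segments was set against that over genes with none. The difference was -0.055, -0.091 and -0.021 in WT replicates 1 to 3 (mean -0.055 ± 0.035 SD, n = 3) and 0.057, 0.030 and 0.076 in Pcm1-/- replicates 1 to 3 (0.054 ± 0.023 SD, n = 3). The genotypes did not overlap. Between libraries of the same number the mutant exceeded WT by 0.111, 0.121 and 0.0963. Within a lane, Pcm1-/- replicate 1 exceeded WT replicate 2 by 0.148 on lane 4, and Pcm1-/- replicates 2 and 3 exceeded WT replicate 3 by 0.0504 and 0.0963 on lane 5. The mutant library with the lowest value, replicate 2, was also the mutant library with the most Malat1, and transcripts in the upper quartile of GC content stood above those in the lower quartile by 0.108, 0.0499 and -0.0417 in WT and by -0.0315, 0.0157 and -0.0893 in mutants. The part of either in the shift was not tested. The median GC content of the transcripts was 49.97% for rises, 52.7% for falls and 50.8% for all scanned genes, and the median protein had 415.5, 804 and 469 residues.

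**Figure D3:**
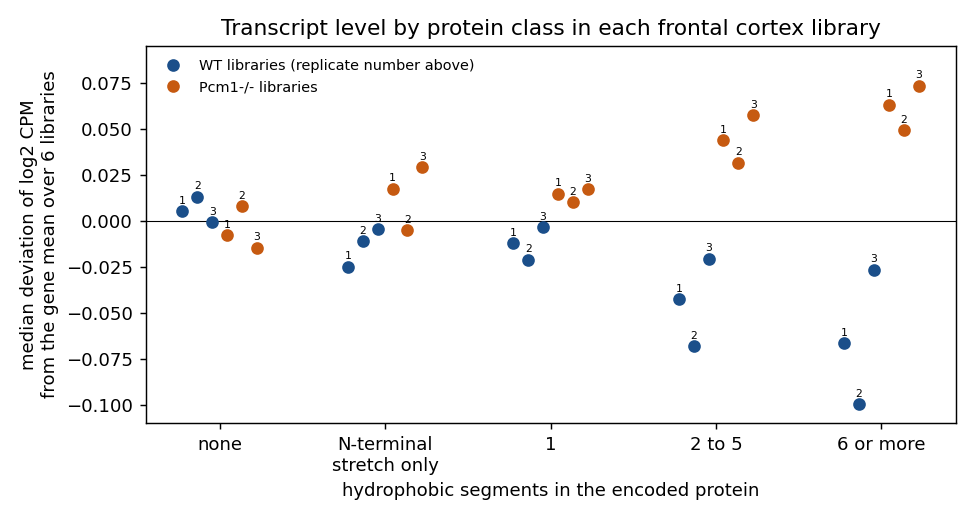
Median deviation of log2 CPM from the gene mean over the 6 frontal cortex libraries, by class of hydrophobic segments; each point is 1 library, with its replicate number above it. In the classes of 2 to 5 and of 6 or more segments the 3 Pcm1-/- libraries are above 0 and the 3 WT libraries below it.

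Some genes for making membrane and secreted proteins also rose. Of 55 tested genes of the ER translocon and membrane insertion machinery, a list added after the data were seen, 5 rose and none fell, 47 were higher in mutants, and the median log2 fold change was 0.11. The share that rose was 9.09%, against 1.41% of all genes tested and 3.72% of genes with a segment or stretch, which 45 of the 55 have themselves. Over the alternatives between 0 and 7 members rose. Besides Tram1l1, the called members were Ncln, Spcs1, Emc7 and Emc4. Ncln, or nicalin, a partner of the ribosome-bound translocon for multi-span proteins, was read at 46.5, 44.8 and 42.6 CPM in WT and at 61.2, 64.6 and 63.1 CPM in mutants (log2 fold change 0.50 ± 0.06 SE, adjusted p = 0.00808). Spcs1, of the signal peptidase, rose from 38.4, 40.1 and 41.3 CPM to 49.3, 48.1 and 49.6 CPM (0.29 ± 0.05, adjusted p = 0.0373). Emc7 and Emc4, of the ER membrane protein complex that inserts helices into the bilayer, rose by 0.31 ± 0.06 and 0.28 ± 0.06 (adjusted p = 0.0467 and 0.0475). Chaperones of the ER lumen and cytosol had 1 rise in 30 (Dnajb9, 0.31 ± 0.06, adjusted p = 0.0361) and a median of 0.03 (-0.03 to 0.11 over the alternatives). Calr, calreticulin, stood at 338 ± 44.4 CPM in WT and 335 ± 14.9 CPM in mutants (SD, n = 3).

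Enzymes that build membrane lipids were higher as well. Of 15 tested ceramide synthases, elongases and related enzymes, 5 rose and none fell (median 0.23, between 2 and 7 rises over the alternatives). That is 33.3%, against 1.41% of all genes tested and 3.72% of genes with a segment or stretch, which all 15 have. Beside Cers6 and Elovl4 these were Ugcg, Cers4 and Degs1. Ugcg, which adds glucose to ceramide as the first step to gangliosides, rose from 119, 120.1 and 125 CPM to 153, 163 and 151 CPM (log2 fold change 0.36 ± 0.05 SE, adjusted p = 0.0195). Degs1, which desaturates dihydroceramide, rose by 0.30 ± 0.05 (adjusted p = 0.0368), and Cers4, a ceramide synthase gene of chromosome 8, by 0.42 ± 0.06 (adjusted p = 0.0195). All 24 tested genes of cholesterol synthesis were higher in mutants, with a median of 0.30 (0.18 without WT replicate 1 and 0.21 with lane as a covariate). Only Msmo1, a sterol demethylase, passed the test (0.43 ± 0.08, adjusted p = 0.0363), and it lies on chromosome 8, 23.4 Mb from Pcm1. Between 0 and 8 members of the list rose over the alternatives, 8 of them with DESeq2, 6 with the replicate block and 0 without WT replicate 1. The summed level of the list was 1471, 1790.2 and 1659 CPM in WT and 2036, 2028 and 1849 CPM in mutants, with no overlap.

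Glycosyltransferases of the Golgi, the next station on the secretory route, had 5 rises and no fall among 70 tested (7.14%, median 0.08). Of the 70, 69 have a segment or stretch, as do 200 of the 209 Tmem genes, 299 of the 318 solute carriers and all 17 tetraspanins below, and 3.72% of all genes with one rose. Those called were St8sia1 and St8sia3, which add sialic acids to gangliosides and glycoproteins, B3galnt1, B3galt2 and Galnt14. St8sia1 went from 64.4, 71.8 and 67.0 CPM to 89.7, 92.1 and 85.4 CPM (log2 fold change 0.40 ± 0.06 SE, adjusted p = 0.0193). Of 17 tetraspanins, small proteins that organize membrane patches, Tspan13, Tspan11 and Tspan5 rose (17.6%, median 0.11), with Tspan13 at 192, 169 and 174 CPM in WT and 240.4, 246 and 242 CPM in mutants (0.45 ± 0.06, adjusted p = 0.0151). Genes named Tmem, for transmembrane proteins, had 17 rises and 1 fall among 209 (8.13% and 0.478%, median 0.12). The Tmem list, the solute carriers, the tetraspanins, the Golgi enzymes, the synaptotagmins and the Zfp genes were lists added after the data were seen. The 318 solute carriers, which move ions and metabolites across membranes, had 11 rises and 1 fall (3.46% and 0.314%, median 0.05), a share of rises no higher than that of all genes with a segment or stretch. Slc8a3, a sodium-calcium exchanger, rose from 22.2, 25.9 and 21.4 CPM to 33.2, 38.4 and 35.4 CPM (0.62 ± 0.09, adjusted p = 0.0177). Over the alternatives 1 to 29 Tmem genes, 0 to 35 solute carriers, 0 to 9 Golgi enzymes and 0 to 4 tetraspanins rose. The highest counts of the Tmem genes and solute carriers came without WT replicate 3, and without Pcm1-/- replicate 1 they were 1 and 0. None of 358 genes named Zfp, which encode zinc finger proteins of the nucleus, was called by the quasi-likelihood test or DESeq2. Only 20 of the 358 have a segment or stretch. Of genes with neither, 0.110% rose and 0.275% fell, so a count of 0 is near that share. The median of the Zfp genes was 0.02 (-0.00044 to 0.05 over the alternatives). With the replicate block 1 fell, and without WT replicate 3 there were 1 rise and 1 fall. At an unadjusted p under 0.05, 15 were higher and 10 lower, against 7.84% and 7.47% of all genes tested.

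Cell adhesion molecules were among the groups with the largest medians. Of 36 protocadherins, cadherin-like receptors that give neurons surface identities, 4 rose, none fell and 31 were higher (median 0.36; 0.24 without Pcm1-/- replicate 1). The share that rose was 11.1% here and among the synaptic adhesion genes below, against 1.41% of all genes tested and 3.72% of those with a segment or stretch, which all 36 protocadherins and 34 of the adhesion genes have. Between 1 and 11 members rose over the alternatives. Beside Pcdh9, Pcdh7 went from 129.9, 161 and 168 CPM to 234, 211 and 237 CPM (log2 fold change 0.57 ± 0.10 SE, adjusted p = 0.0269). Pcdha11 (0.30 ± 0.05, adjusted p = 0.027) and Pcdhb9 (0.42 ± 0.07, adjusted p = 0.0326) are members of clusters whose genes share exons or are near copies, so that reads can be split between them and their separate levels are uncertain. Synaptic adhesion genes had 4 rises and no fall among 36, with 34 higher and a median of 0.19. The rises numbered 16 without WT replicate 3, 7 with the replicate block, and 0 with lane as a covariate or without any other single library. Slitrk2 and Slitrk4, leucine-rich repeat proteins that shape synapses, rose by 0.46 ± 0.07 and 0.50 ± 0.09 (adjusted p = 0.0205 and 0.0378). Flrt2, a ligand of latrophilins, stood at 126, 125 and 128 CPM in WT and at 148, 148 and 153 CPM in mutants (0.25 ± 0.05, adjusted p = 0.0422). Cntn4, a contactin, rose by 0.30 ± 0.05 (adjusted p = 0.037).

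Ion channels followed, with a higher median for potassium channels than for sodium and calcium channels. Of 82 tested, 6 rose and none fell, 62 were higher, and the median log2 fold change was 0.16. That is 7.32%, against 3.72% of genes with a segment or stretch, which 75 of them have. The rises numbered 15 without WT replicate 3, 11 with the replicate block, 1 without WT replicate 1, and 0 with lane as a covariate or without any other single library. The summed potassium channel level was 6242, 6298 and 6104 CPM in WT and 7023, 7062 and 6825 CPM in mutants. Kcnj3, a subunit of the G protein-gated inward rectifier, went from 174, 178 and 197 CPM to 245, 231 and 237 CPM (0.38 ± 0.06 SE, adjusted p = 0.024). Kcna1, an axonal delayed rectifier, rose from 295, 299 and 265 CPM to 371, 379 and 354 CPM (0.36 ± 0.06, adjusted p = 0.031). Kcnd2, which carries the dendritic A-type current, rose by 0.36 ± 0.06, Kcnj4 by 0.43 ± 0.08 and Kcnk12 by 0.54 ± 0.10 (adjusted p = 0.0361, 0.0392 and 0.0426). Among 40 sodium and calcium channel genes, of which 35 have a segment or stretch, Cacng8, Scn1a and Cacna2d3 rose (7.5%) and none fell. Their median was 0.05 (-0.02 with lane as a covariate or without WT replicate 1). Between 0 and 5 of them rose over the alternatives. Cacng8, an auxiliary subunit of AMPA receptors, went from 67.7, 69.8 and 69.1 CPM to 91.4, 97.9 and 90.8 CPM (0.44 ± 0.05, adjusted p = 0.00927). Scn1a, the sodium channel of fast-spiking interneurons, went from 199, 237 and 196 CPM to 305, 278 and 285 CPM (0.46 ± 0.08, adjusted p = 0.0326).

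Secreted peptides and granule proteins rose in part. Of 38 tested, 5 rose (13.2%, with 36 of the 38 having a segment or stretch), none fell and 31 were higher (median 0.19). The share that rose was 1.41% of all genes tested and 3.72% of genes with a segment or stretch. Between 0 and 13 rose over the alternatives, with 12 in the replicate block and 0 without Pcm1-/- replicate 1. Penk, the enkephalin precursor, was read at 49.0, 53.9 and 41.4 CPM in WT and 104, 83.3 and 91.4 CPM in mutants, or 1.93-fold (log2 fold change 0.95 ± 0.11 SE, adjusted p = 0.00816). Scg2, a granin from which secretoneurin is cut, was read at 175, 179 and 176 CPM in WT and at 317, 242 and 255 CPM in mutants (0.62 ± 0.09, adjusted p = 0.0195), with Pcm1-/- replicate 1 the highest. Vgf, another granule protein, rose from 265, 235 and 241 CPM to 339, 317 and 322 CPM (0.40 ± 0.06, adjusted p = 0.0195). Sst, the somatostatin precursor, rose by 0.43 ± 0.08 (adjusted p = 0.0426), and its relative Cort was the fifth. Among 26 activity-regulated early genes, several of which drive such peptides, Jun rose (0.37 ± 0.07, adjusted p = 0.0409) and the median was 0.19. Of the 26, 20 were higher, 10 of them and no lower gene at an unadjusted p under 0.05, and 5 rose with the replicate block. Arc and Egr1, 2 of the most used markers of recent firing, showed overlapping genotypes, with Egr1 at 427 ± 69.6 CPM in WT and 411 ± 18.98 CPM in mutants and Arc at 325 ± 35.4 CPM and 369.9 ± 52.7 CPM (SD, n = 3).

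On the presynaptic side, only some genes moved. Of 46 genes of vesicles and release, Syp, Sv2a, Syt5 and Syt1 rose, none fell, 23 were higher and 23 lower, and the median was 0.01. The share that rose was 8.70%, against 1.41% of all genes tested and 3.72% of genes with a segment or stretch, which 16 of the 46 have. The rises numbered 6 with DESeq2, with the replicate block and without WT replicate 3, 2 without WT replicate 1, and 0 with lane as a covariate or without any other single library. All 4 encode proteins that span the vesicle membrane. Syp, synaptophysin, went from 968, 916 and 955 CPM to 1264, 1174 and 1216 CPM (log2 fold change 0.36 ± 0.05 SE, adjusted p = 0.0174). Sv2a went from 531, 531 and 534 CPM to 667, 674 and 648 CPM (0.32 ± 0.05, adjusted p = 0.0177). Syt1, the calcium sensor of fast release, went from 2286, 2469 and 2489 CPM to 2991, 2818 and 3029 CPM (0.29 ± 0.06, adjusted p = 0.0435). Of all 16 synaptotagmins, 15 of which have a segment or stretch, 6 rose, with a median of 0.29 (0.22 with lane as a covariate). The 6, or 37.5% against 3.72% of all genes with a segment or stretch, included Syt12, Syt11 and Syt13. The synaptotagmin rises numbered 8 with DESeq2 and without WT replicate 3, 7 with the replicate block, and 0 with lane as a covariate or without any other single library. On the postsynaptic side 1 gene passed the test. Of 30 genes of the postsynaptic density and CaMKII 1 fell (3.33%, against 0.336% of all genes tested), 21 were lower and the median was -0.09. Over the alternatives 0 to 3 fell. At an unadjusted edgeR p under 0.05, 10 of the 30 were lower and none higher, against 7.47% and 7.84% of all genes. Camk2a, the kinase that makes up much of the density, fell from 5646, 5039 and 4926 CPM to 4297, 4013 and 4225 CPM (-0.32 ± 0.06, adjusted p = 0.0475), while its partner subunit Camk2b stood at 896 ± 52.8 CPM and 891 ± 32.9 CPM and Dlg4, PSD-95, at 998 ± 46.9 CPM and 890.0 ± 40.9 CPM (adjusted p = 0.216).

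Nuclear and cytoskeletal proteins were among the 12 falls with the smallest p at an average log2 CPM of 1 or more. Rreb1, a zinc finger transcription factor of Ras signalling, was read at 26.6, 24.1 and 26.1 CPM in WT and at 14.4, 15.1 and 12.8 CPM in mutants (log2 fold change -0.86 ± 0.08 SE, adjusted p = 0.00545). Srrm2, a scaffold of nuclear speckles and splicing, fell from 393, 398 and 405 CPM to 260.2, 298 and 275 CPM (-0.52 ± 0.06, adjusted p = 0.00876), and Zfc3h1, which targets nuclear RNA to the exosome, from 42.5, 39.8 and 43.3 CPM to 29.96, 32.1 and 30.9 CPM (-0.43 ± 0.06, adjusted p = 0.0168). Flna, a filamin that cross-links actin, fell from 41.4, 39.9 and 38.6 CPM to 25.4, 26.6 and 29.1 CPM (-0.57 ± 0.07, adjusted p = 0.0101). Akap13, a kinase anchor protein, fell by 0.50 on the log2 scale (SE 0.07, adjusted p = 0.0177). Ddn, dendrin of dendrites and spines, went from 1284, 1228 and 1300.3 CPM to 1003, 997 and 1028 CPM (-0.33 ± 0.05, adjusted p = 0.0177), the smallest change of the 12. Trank1, a large repeat protein, went from 194, 180.3 and 182 CPM to 113, 128 and 105 CPM (-0.68 ± 0.08, adjusted p = 0.00808). Also among the 12 were mt-Tc, Dctd, 4930447C04Rik and ENSMUSG00000078821. Of 52 chromatin regulators, Smarca2, an ATPase of BAF remodelling complexes, fell (-0.27 ± 0.05, adjusted p = 0.0389), or 1.92% against 0.336% of all genes tested. Of the 52, 41 were lower, and the median was -0.05 (0.01 without WT replicate 3).

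Transcripts of the mitochondrial genome were lower in every mutant library. All 7 tested mRNAs were lower (median log2 fold change -0.56), and mt-Nd5, mt-Cytb, mt-Nd6 and mt-Co1 passed the test. All 7 fell with DESeq2, with the replicate block and without WT replicate 3, 2 fell without WT replicate 1, and none with lane or sex as a covariate, in 1 fit of all 18 libraries or without any other single library. mt-Cytb, of complex III, was read at 10376, 8351 and 7416 CPM in WT and at 5907, 6214 and 5601 CPM in mutants (-0.56 ± 0.11 SE, adjusted p = 0.0448). mt-Co1, of complex IV, was read at 10078, 8289.6 and 7161 CPM in WT and at 5753, 6144 and 5456 CPM in mutants (-0.56 ± 0.11, adjusted p = 0.0475). The WT libraries differed widely, replicate 1 being highest. mt-Nd5 and mt-Nd6 overlap on opposite strands, and the strand setting of the counting was not given in the sources used here. How far the overlap or the strand setting affects the counts of either gene was not tested. The tRNA gene mt-Tc fell from 42.8, 36.5 and 34.7 CPM to 22.2, 21.3 and 22.0 CPM (-0.80 ± 0.08, adjusted p = 0.00733). Of 88 nuclear genes of oxidative phosphorylation none was called by the quasi-likelihood test and 1 rose by DESeq2, 61 were higher and the median was 0.05 (0.0025 without WT replicate 3). At an unadjusted p under 0.05, 11 of them were higher and none lower. Cytosolic ribosomal proteins had no call among 77, 57 being lower, with a median of -0.07 (-0.04 without WT replicate 1, -0.03 with lane as a covariate). There was 1 fall with DESeq2, the edgeR exact test and the replicate block, 6 falls came without WT replicate 3 and 1 rise without Pcm1-/- replicate 3. At an unadjusted p under 0.05, 1 was higher and 7 lower. Nuclear noncoding RNAs of neurons were lower in 11 of 14 cases (median -0.45), 6 of them at an unadjusted p under 0.05, with no call by the quasi-likelihood test or DESeq2, 1 fall by the edgeR exact test, and 3 with the replicate block. The median was -0.32 without WT replicate 1 and without Pcm1-/- replicate 3. For the most abundant, Pcm1-/- replicate 2 lay inside the WT range. Meg3 stood at 1211, 1126 and 710.0 CPM in WT and at 503, 872 and 409.9 CPM in mutants, and Snhg11 at 750.2, 666 and 439 CPM and at 293, 495 and 262 CPM.

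Few layer and projection neuron markers were called, but 1 call is a large share of so short a list. Over all genes tested 1.41% rose and 0.336% fell. Of the excitatory markers 8.33% rose and 8.33% fell, and of the upper layer markers 7.69% fell. Of the GABA interneuron markers 10.7% rose, of the striatal ones 5.26% rose and of the hippocampal ones 8.33% fell. Of 12 excitatory neuron markers Slc17a7 rose (1873, 1939 and 1880.1 CPM against 2246, 2365 and 2217 CPM, log2 fold change 0.26 ± 0.05 SE, adjusted p = 0.0396) and Camk2a fell. Of 13 upper layer markers Otof alone was called, falling from 25.9, 20.3 and 28.2 CPM to 11.6, 10.6 and 14.9 CPM (-1.01 ± 0.15, adjusted p = 0.0195). At an unadjusted p under 0.05, 4 upper layer markers were lower and none higher (median -0.03; -0.13 without Pcm1-/- replicate 2, 0.0074 without replicate 1), while Cux2, a transcription factor of the same layers, stood at 162 ± 4.82 CPM in WT and 161 ± 6.61 CPM in mutants (SD, n = 3). No marker of layer 5 (12 tested) or layer 6 and subplate (14 tested) was called by the quasi-likelihood test or DESeq2, with 3 and 2 higher and none lower at an unadjusted p under 0.05, and Tle4 of layer 6 stood at 62.2 ± 1.22 CPM and 62.3 ± 0.967 CPM. Of 28 GABA interneuron markers Crhbp, Cort and Sst rose, none fell and the median was 0.01 (0.07 with lane as a covariate and without Pcm1-/- replicate 3). With the replicate block 3 rose and 1 fell, and none rose with lane as a covariate or without WT replicate 1 or Pcm1-/- replicates 1 or 2. The 3 called are genes of somatostatin interneurons, and Crhbp, a protein that binds corticotropin-releasing hormone, went from 15.3, 16.8 and 14.6 CPM to 25.5, 23.8 and 21.5 CPM (0.60 ± 0.09, adjusted p = 0.0188). Gad1, the enzyme shared by all GABA neurons, stood at 302 to 397 CPM in WT and 368 to 396 CPM in mutants, and Lhx6, a transcription factor of the same interneurons, at 23.2 to 26.3 CPM and 23.2 to 26.6 CPM (both named after their values were seen). Drd1 was the called gene of the 19 striatal markers (0.68 ± 0.10, adjusted p = 0.0177), of which 0 to 3 rose over the alternatives. Their median was 0.07, and it was 0.12 and -0.0070 without Pcm1-/- replicates 1 and 2. Meis2 was that of the 12 hippocampal markers (-0.28 ± 0.05, adjusted p = 0.0414), of which 0 to 3 fell over the alternatives, 0 of them with lane as a covariate or without any single library other than WT replicate 3. Their median was -0.21 (-0.12 without WT replicate 2). Olfactory bulb markers varied within genotypes, with Cdhr1 at 3.795, 47.1 and 40.9 CPM in WT and 59.4, 25.7 and 66.9 CPM in mutants.

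Markers of glia, vessels and blood were lower on the whole, and the number called depended on the fit. Of 23 oligodendrocyte and myelin genes 22 were lower (median log2 fold change -0.28), and Olig1, a lineage transcription factor, fell from 83.3, 78.3 and 74.4 CPM to 66.3, 64.0 and 61.4 CPM (-0.30 ± 0.06 SE, adjusted p = 0.0473). Mbp, of myelin, was read at 1062, 769 and 702 CPM in WT and at 615, 669.9 and 634 CPM in mutants (adjusted p = 0.197), so that WT replicate 1 stood apart. The summed list was at 2746 to 3547 CPM in WT and 2470.1 to 2603 CPM in mutants. With DESeq2, 6 oligodendrocyte, 4 mural and 5 blood cell markers fell, and with the replicate block 3, 4 and 7 did. The quasi-likelihood test gave 1, 1 and 2 (4.35%, 8.33% and 18.2%), against 0.336% of all genes tested. Over the alternatives the falls ran from 0 to 8, 0 to 4 and 0 to 8. All 3 counts were 0 with lane as a covariate, without WT replicate 2 and without any single Pcm1-/- library. All 11 precursor markers (median -0.18), 19 of 20 microglial markers (median -0.23; -0.10 without WT replicate 1, -0.09 with lane as a covariate) and 12 of 17 endothelial markers (median -0.19; -0.02 without WT replicate 1, -0.03 with lane as a covariate) were lower, with no call. DESeq2 gave 2 microglial falls and 1 endothelial fall, the replicate block gave 3 microglial falls and 1 precursor fall, and at an unadjusted p under 0.05 the edgeR test gave 3 precursor, 8 microglial and 3 endothelial markers lower. All 12 mural cell markers were lower (median -0.31), with sums of 209.9 to 259 CPM in WT and 187 to 195 CPM in mutants, and Acta2, smooth muscle actin, fell from 7.08, 5.69 and 4.73 CPM to 2.37, 2.59 and 2.87 CPM (-1.16 ± 0.17, adjusted p = 0.0186). All 11 blood cell markers were lower (median -1.33), with sums of 169 to 229 CPM in WT and 83.0 to 120.2 CPM in mutants, and the immunoglobulin genes Igkc (-2.28 ± 0.37, adjusted p = 0.0234) and Jchain (-1.80 ± 0.34, adjusted p = 0.041) fell. Meningeal (median -0.39), ependymal (-0.23) and choroid plexus (-0.27) markers had no call in any of the 15 alternatives, with 1, 5 and 2 lower at an unadjusted p under 0.05, and the meningeal sum overlapped between genotypes (496 to 696 CPM and 358 to 697 CPM). The meningeal median was -0.19 without WT replicate 1, -0.25 and -0.22 without Pcm1-/- replicates 1 and 2, -0.69 without Pcm1-/- replicate 3 and -0.21 with lane as a covariate. The ependymal median was -0.14 without WT replicate 3 and the choroid plexus median -0.15 without Pcm1-/- replicate 3. Of 22 astrocyte markers none was called by the quasi-likelihood test or DESeq2 and 2 fell with the replicate block. At an unadjusted p under 0.05, 5 were lower and 1 higher, and the median was -0.08 (0.0068 without WT replicate 1, -0.16 without WT replicate 3, 0.02 with lane as a covariate), with Slc1a2, the main glutamate transporter, at 4783 ± 303 CPM in WT and 4817 ± 146 CPM in mutants (SD, n = 3). Membrane proteins were common in the lists that were lower too: 17 of 20 microglial and 16 of 17 endothelial markers had a segment or stretch. The part of cell makeup or of blood left in the tissue in any result above was not tested.

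**Figure D4:**
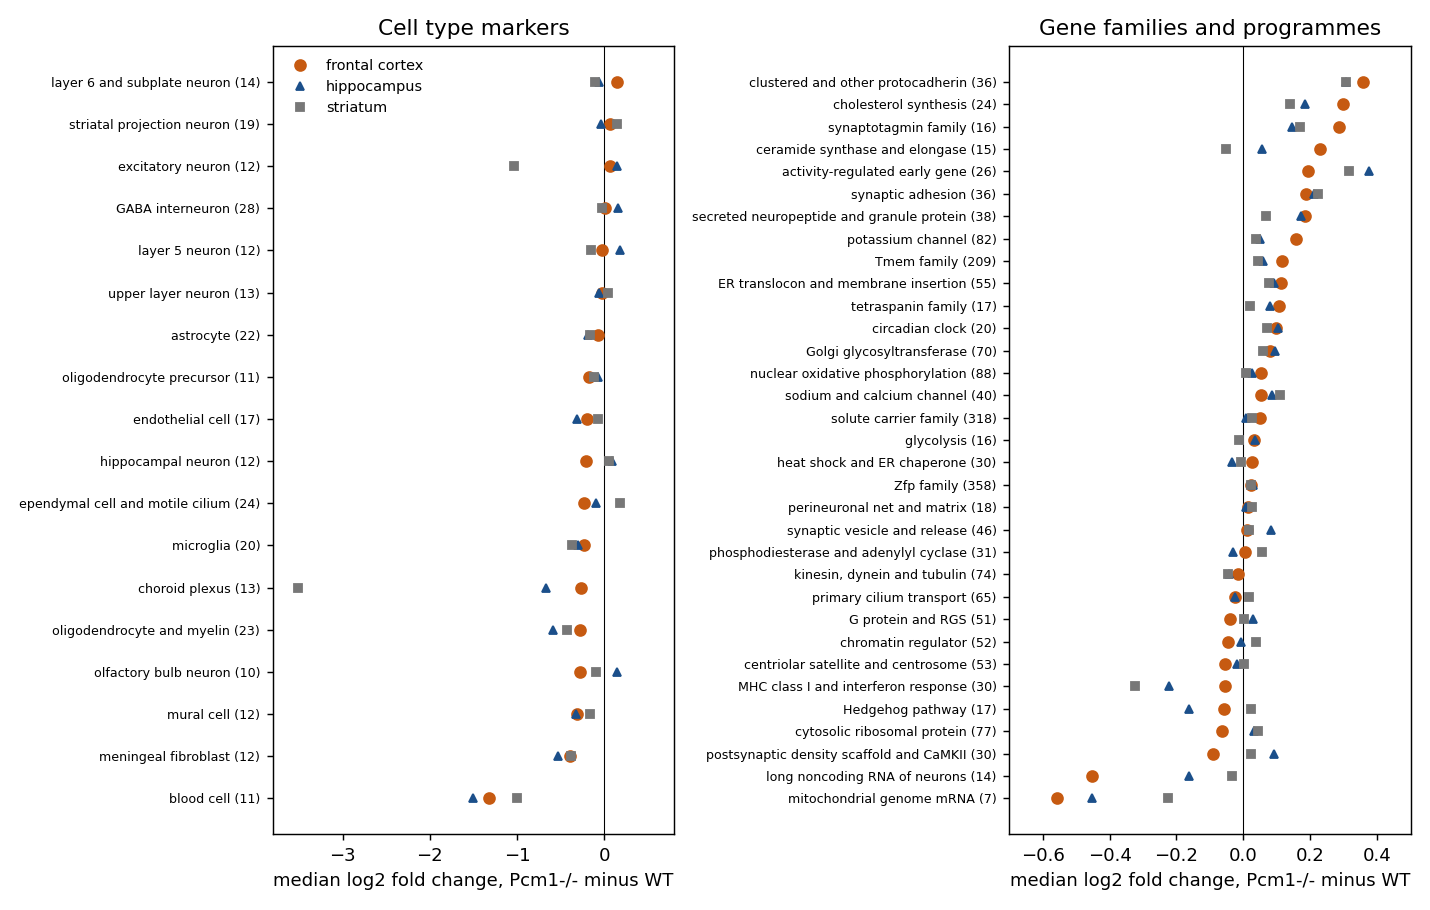
Median log2 fold change, Pcm1-/- minus WT, of each list of cell type markers (left) and of each gene family or programme (right) in the frontal cortex, hippocampus and striatum, with the number of genes tested in brackets. Protocadherins (0.36) and cholesterol synthesis (0.30) have the highest frontal cortex medians and blood cell markers (-1.33) the lowest.

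Lists of the structures that PCM1 serves held no call, or 1 in some settings. Of all genes tested 1.41% rose and 0.336% fell, so a count of 0 in lists of this size is near the background. None of 53 centriolar satellite and centrosome genes passed the test here or in any of the 15 alternatives, with 20 higher, 33 lower, and a median log2 fold change of -0.05 (-0.09 to -0.01 over the alternatives). Of the 53, 9 were lower and none higher at an unadjusted p under 0.05, and 15 lay wholly below the WT libraries and none wholly above, against 10.1% and 11.2% of all genes. Their summed level was 2227, 2269.8 and 2393 CPM in WT and 2223, 2222 and 2291 CPM in mutants, Pcm1 not being counted. None of 65 genes of ciliary transport was called in any of them either (median -0.03; 1 higher and 3 lower at an unadjusted p under 0.05). Kif3a, the motor of anterograde transport in cilia, stood at 162 ± 3.45 CPM in WT and 159 ± 4.75 CPM in mutants (SD, n = 3; adjusted p = 0.816). Kifap3, its adaptor, stood at 368 ± 25.1 CPM and 393 ± 16.2 CPM (adjusted p = 0.529). Of 17 Hedgehog pathway genes none was called by the quasi-likelihood test, and 1 fell by DESeq2, by the edgeR exact test and without WT replicate 3 (median -0.06, and -0.13 without that library; 2 higher and 3 lower at an unadjusted p under 0.05). Ptch1, both a receptor and a target of the pathway, stood at 43.8 ± 2.20 CPM and 41.3 ± 0.491 CPM (adjusted p = 0.52). Over all genes tested, 1375 were higher and 1310 lower at an unadjusted p under 0.05. Outside these lists, and named after its value was seen, Tmem17, a protein of the ciliary transition zone, rose from 3.66, 3.98 and 3.93 CPM to 5.75, 5.87 and 5.84 CPM (0.59 ± 0.11, adjusted p = 0.0364).

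Called genes were more frequent near Pcm1 on chromosome 8. Within 10 Mb of Pcm1, with Pcm1 left out, 5 of 79 tested genes rose and 4 fell, or 11.4%, against 4.90% at 10 to 20 Mb, 2.91% at 20 to 40 Mb, 0.437% at 40 to 100 Mb and 1.69% on other chromosomes. Between 0 and 8 genes within 10 Mb rose and between 0 and 6 fell over the alternatives. The median log2 fold change there was 0.01 and the median absolute log2 fold change 0.13, against 0.12 on other chromosomes. The rises were Saraf, Leprotl1, Gsr, Ubxn8 and Zdhhc2. Leprotl1, a membrane protein of endosomes next to Saraf, went from 80.8, 76.8 and 82.0 CPM to 109.8, 106 and 104 CPM (0.42 ± 0.05 SE, adjusted p = 0.0109). Gsr, glutathione reductase, went from 30.2, 30.7 and 32.4 CPM to 41.0, 48.7 and 45.5 CPM (0.54 ± 0.07, adjusted p = 0.0167). The falls were Dctd, Slc7a2, Dlc1 and the low-count pseudogene Gm5345. Dctd, which deaminates deoxycytidylate 6.84 Mb beyond Pcm1, went from 4.41, 4.87 and 4.54 CPM to 1.67, 2.17 and 1.502 CPM (-1.36 ± 0.16, adjusted p = 0.00927), and Slc7a2, a cationic amino acid transporter 0.394 Mb before it, from 39.6, 34.2 and 34.0 CPM to 25.6, 21.4 and 25.6 CPM (-0.57 ± 0.09, adjusted p = 0.0244). Loss of Pcm1 and carried-over DNA of the stem cell strain cannot be told apart for these genes. How far such DNA reaches was not tested. The same limit can hold for genes farther along chromosome 8, such as Msmo1 at 23.4 Mb and Npy1r at 25.4 Mb. Whether such DNA also remained on other chromosomes, where 229 of the 247 rises lay, was not tested.

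**Figure D5:**
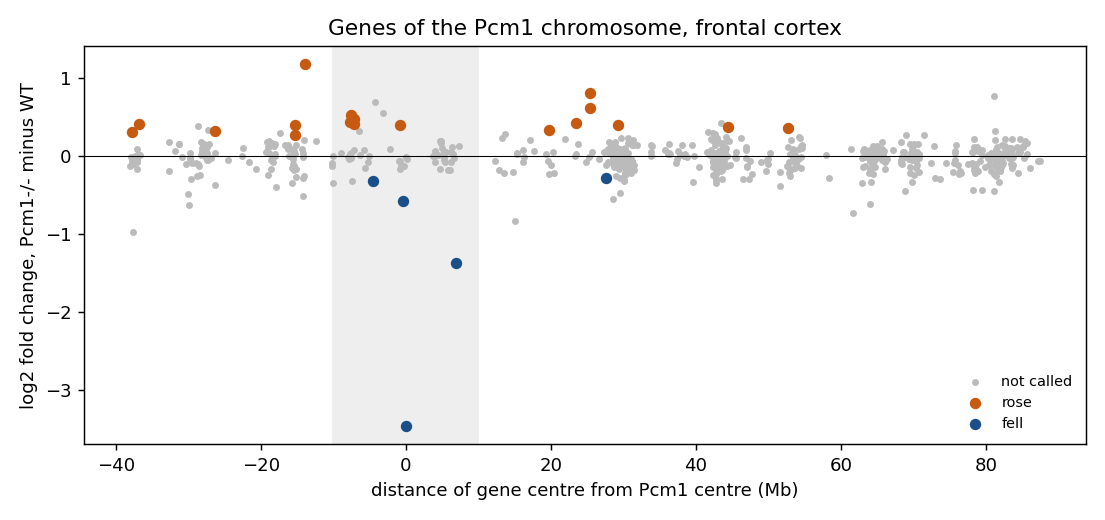
Log2 fold change, Pcm1-/- minus WT, of the genes of chromosome 8 whose average log2 CPM was 1 or more in the frontal cortex, against the distance of the gene centre from that of Pcm1 in Mb; coloured points passed the test and the shaded band marks 10 Mb on each side. Pcm1 is the lowest point, at -3.46, and 9 of 79 other genes tested inside the band were called, of which the low-count Gm5345 is not drawn.

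The genotype effect in the frontal cortex was then set against that in the other regions of the same mice. The labels do not tie libraries of different regions to a mouse, so no mouse term was fitted, and the tests of a difference take the libraries as independent. In the striatum all WT libraries were run on lane 5 and the Pcm1-/- libraries on lanes 3, 4 and 4, so that lane and genotype cannot be told apart there. Of the 247 rises, 216 had a positive log2 fold change in the striatum (median 0.23) and 217 in the hippocampus (median 0.26). Of the 59 falls, 47 and 46 were negative there (medians -0.24 and -0.27). Tested alone, the striatum gave 5 called genes and the hippocampus 3, of which 4 and 2 were also called in the frontal cortex. Tmem179 had like values across regions (0.75 ± 0.05 SE in frontal cortex, 0.74 ± 0.14 in striatum and 0.71 ± 0.15 in hippocampus), as had Cers6 (0.90 ± 0.07, 0.78 ± 0.07 and 0.95 ± 0.09). Pcdh9 (0.64 ± 0.06, 0.00 ± 0.09 and 0.21 ± 0.07) and Rreb1 (-0.86 ± 0.08, -0.17 ± 0.10 and -0.56 ± 0.27) had smaller values elsewhere. When the difference itself was tested, 1 gene of 17545 (0.0057%) differed between frontal cortex and striatum and 1 (0.0057%) between frontal cortex and hippocampus, neither of them among the 306. With the replicate block the counts were 0 and 12, the latter with 4 of the 306, and with DESeq2 they were 22 and 37, with 9 and 11 of the 306. The lowest adjusted p of a difference among the 306 was 0.0952 for the striatum and 0.0532 for the hippocampus, and 929 and 965 genes had an unadjusted p under 0.05.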

How the data were processed

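RNA sequencing counts of 6 frontal cortex libraries, 3 WT and 3 Pcm1-/-, were analysed. The authors trimmed reads with Trim Galore and Cutadapt, mapped those of 20 bases or longer with STAR (GRCm38), retained uniquely mapped reads and deposited raw HTSeq counts per Ensembl gene, without normalization. Tool versions and the strand setting are not given in the sources used here. Reads on no gene or on several were left out (8.98% to 11.0% and 1.69% to 1.79% of those listed). GENCODE, another release than the authors' one, gave symbols and positions for 36639 of 38561 genes.

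Any gene reaching 10 counts in any of the 18 libraries was fitted in edgeR 4.0.16 (R 4.3.3) with TMM factors and the quasi-likelihood test, genotype being the only term. The p-values were Benjamini-Hochberg adjusted over all 17545 genes and called under 0.05. SE is the absolute log2 fold change over the square root of F, and CPM uses TMM-scaled library sizes. The code was tested on simulated data. Region differences were interaction contrasts over 18 libraries.

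Named genes were Pcm1, the 12 rises and 12 falls with the smallest p (average log2 CPM of 1 or more, no overlap), up to 5 called members per list or, with fewer than 2 called, up to 3 of the most abundant, and up to 3 genes per region difference, some of which are not reported here. The comparison and all gene lists were chosen with earlier results of these data known. Hydropathy was averaged over 19 residues of the translated coding sequence, and over 11 within the first 35 residues at a mean of at least 2.0.

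Same-numbered libraries deviated together (correlations of 0.228, 0.506 and 0.395 over 12801 genes), so the replicate number was used as a block in 1 alternative. The main fit held no such term. Replicate 2 was the male library in both genotypes, and both replicates 3 were run on lane 5. The correlations therefore do not show that the numbers of the labels denote pairs. Alternatives were DESeq2 1.42.0, the edgeR exact test, other size factors and filters, all libraries, lane, sex, the replicate block and each library left out. The biological coefficient of variation was 9.49%.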

Additional observations from a re-analysis of the deposited data

Results flagged for a closer look

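The genotype effect on Grik1, a kainate receptor subunit, differed between regions, being 1.52 ± 0.21 (log2, SE) higher in the frontal cortex than in the striatum by the edgeR interaction test (adjusted p = 0.0327). The call was lost with the replicate block (1.52, adjusted p = 0.0691), with lane as a covariate (1.33, adjusted p = 0.293) and without any single frontal cortex library other than WT replicate 3 (adjusted p between 0.0726 and 0.158). In the frontal cortex Grik1 was read at 7.15, 7.92 and 8.98 CPM in WT and at 8.49, 9.64 and 9.46 CPM in mutants (log2 fold change 0.20), and in the striatum its log2 fold change was -1.31. All WT striatum libraries were run on lane 5 and no mutant one, so the effect of genotype on that value, and on the difference, cannot be told apart from that of the lane. Neither this test nor the next holds a term for the mouse, although the regions came from the same mice.

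The effect on Prag1, a pseudokinase gene of chromosome 8, was lower in the frontal cortex than in the hippocampus (-1.24 ± 0.17, edgeR adjusted p = 0.0260; 0.0152 with the replicate block). It was lost with lane as a covariate (-1.12, adjusted p = 0.159) and without WT replicates 1 or 3 or Pcm1-/- replicates 1 or 2 (adjusted p between 0.0661 and 0.131). Prag1 was read at 64.2, 49.0 and 63.0 CPM in WT and at 56.2, 49.7 and 61.6 CPM in mutants in the frontal cortex (log2 fold change -0.07), with a log2 fold change of 1.15 in the hippocampus. The gene lies at -5.16 Mb from Pcm1, so loss of Pcm1 and carried-over DNA of the stem cell strain cannot be told apart for it. With each frontal cortex library left out in turn, 0 to 1 genes differed from the striatum and 0 to 2 from the hippocampus.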

How the results depend on the processing

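All 15 alternatives kept the direction of the 306 calls, as groups without overlap nearly require, and Pcm1 stayed between -3.55 and -3.38. Against 247 rises and 59 falls, the counts were 456 and 231 with DESeq2, 419 and 234 with the edgeR exact test, 393 and 151 with no filter, 155 and 21 in 1 fit of all 18 libraries, 22 and 7 with lane as a covariate, and 436 and 188 at an adjusted p under 0.1. They ranged from 8 to 553 rises and from 3 to 272 falls with a library left out. DESeq2 shared 302 calls with the 306, 1 fit of all libraries 150, and sex as a covariate 245. With the replicate block they were 428 and 237, and the block took no frontal cortex call of a named gene away. Genes whose effect differed from that in the striatum numbered 22 with DESeq2, 2 with filterByExpr, 0 with the replicate block and 0 to 1 with a library left out. In the WT striatum the male library was replicate 3, not 2 as in the other groups, so the block joined libraries of unlike sex there. For the hippocampus they numbered 37 with DESeq2, 2 with DESeq2 size factors, 0 with lane, 12 with the replicate block and 0 to 2 with a library left out. The cause of these shifts was not tested. Of 780 recomputed medians of gene lists, 749 moved by less than the spread between replicates and 31 by more. With 3 libraries per genotype on unbalanced lanes, and pituitary RNA in 1 WT library, small changes of single genes remain uncertain.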

Other observations

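Signalling and housekeeping lists other than those above had no call by the edgeR quasi-likelihood test with genotype as its only term. Of 51 genes of G proteins and their RGS regulators none was called by that test, 3 fell by DESeq2, 2 by the edgeR exact test and 3 with the replicate block (median log2 fold change -0.04). Of 31 phosphodiesterases and adenylyl cyclases (median 0.0048), 20 circadian clock genes (median 0.10) and 16 glycolysis genes (median 0.03) none was called by that test, by DESeq2 or with the replicate block, although 1 cyclase or phosphodiesterase gene fell and 3 clock genes rose and 1 fell without WT replicate 3. At an unadjusted p under 0.05 the edgeR test gave 4 higher and 8 lower G protein genes, 5 higher and 2 lower cyclase and phosphodiesterase genes, 3 higher and 1 lower clock genes, and 1 higher and 2 lower glycolysis genes, where 7.84% of all genes tested were higher and 7.47% lower. Adcy1, the calcium-stimulated adenylyl cyclase of forebrain neurons, stood at 1327 ± 53.4 CPM in WT and 1331 ± 30.1 CPM in mutants (SD, n = 3). Of 74 kinesin, dynein and tubulin genes, which build and use the tracks that satellites travel on, 1 fell by DESeq2, by the edgeR exact test and with the replicate block, and 2 without WT replicate 3 (median -0.02; 2 higher and 7 lower at an unadjusted p under 0.05). Of 18 genes of the perineuronal net and matrix DESeq2, the edgeR exact test and the replicate block each gave 1 rise and 1 fall (median 0.02; 2 higher and 2 lower at an unadjusted p under 0.05). Of 30 genes of MHC class I and the interferon response none was called in any of the 15 alternatives (median -0.06, -0.17 to 0.23 over the alternatives; 1 higher at an unadjusted p under 0.05), and B2m, the light chain of class I, was read at 140.1, 87.5 and 83.8 CPM in WT and at 108, 97.0 and 95.7 CPM in mutants.

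Some low or uneven genes among the calls lay on chromosomes other than that of Pcm1 and are named here after their values were seen. The processed pseudogene Gm6969 on chromosome 12 was read at 0.0342, 0.112 and 0.325 CPM in WT and at 3.35, 3.73 and 3.28 CPM in mutants (edgeR adjusted p = 0.00372), and its log2 fold change was 4.53 in the striatum and 5.97 in the hippocampus. H2-T3 and H2-Bl, class I genes of chromosome 17 that the list of 30 above does not hold, were read at 0 to 0.0372 CPM and 0.216 to 0.335 CPM in WT. In mutants they were read at 0.301 to 0.76 CPM and 0.853 to 1.58 CPM. Ide, the insulin-degrading enzyme on chromosome 19, was read at 123, 121 and 122 CPM in WT and at 55.3, 52.6 and 88.1 CPM in mutants (log2 fold change -0.90 ± 0.17 SE, adjusted p = 0.0396), with -0.98 ± 0.15 in the striatum and -0.90 ± 0.18 in the hippocampus. The 3 mutant libraries disagreed for Ide and the 3 WT libraries did not.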
